A study of Mus musculus with 24 samples.

Results

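Mouse forelimb buds kept in 1 µM BPDP were compared over culture time: the 4 libraries of limb buds cultured for 24 h against the 4 libraries cultured for 3 h. These are 8 of the 24 libraries of the study, chosen by their labels, and all genes were tested from the deposited raw counts. BPDP is tert-butylphenyl diphenyl phosphate, an organophosphate ester that serves as a flame retardant and plasticizer. All 24 libraries came from limb buds of CD1 embryos, an outbred mouse stock, taken on gestation day 13. The other groups, again 4 libraries each, were limb buds in 10 µM BPDP for 24 or 3 h and limb buds in the solvent DMSO alone for 24 or 3 h. Poly-A RNA was sequenced, and the series title names hedgehog signalling as the pathway of interest. The labels do not say whether a library held 1 limb bud or several, or whether replicates came from separate litters or cultures. The p-values therefore measure the spread between these samples, which may be partly technical.

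A limb bud on this gestation day is a core of mesenchyme under a skin epithelium, with condensing cartilage, young muscle, blood vessels and nerve in it. Cartilage cells first divide and lay down a collagen II matrix, then enlarge (hypertrophy) and switch to collagen X, and bone forms next to them. Hedgehog ligands bind the receptor Ptch1, which frees Smo to signal, and the Gli factors then switch on target genes, among them Ptch1, Hhip and Gli1 themselves. In the limb, Sonic hedgehog (Shh) patterns the digits, and Indian hedgehog (Ihh), made by prehypertrophic cartilage cells, controls the growth of the skeletal elements. Since culture time and development run together here, and every limb bud was cultured, age and time in culture cannot be told apart.

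The 1 µM libraries held 14887622 to 18828843 counts at 24 h and 15630217 to 20823058 counts at 3 h. Levels are given in CPM, counts per 1000000 counts of a library after scaling between libraries. Tbx5, the forelimb factor, was at 243 to 282 CPM at 24 h and 273 to 289 CPM at 3 h, and Pitx1, the hindlimb factor, was at 1.93 to 5.71 CPM at 24 h and 6.54 to 7.58 CPM at 3 h. Neither passed the test (adjusted p 0.231 and 0.0757). Pitx1 passed it with replicate number as a block (adjusted p 0.0318) and without the 24 h replicate 1 library (adjusted p 0.0478). Replicate 3 at 3 h stood apart, with 5.36% of its counts in the noncoding transcript Yam1, against 0.0842 to 0.129% in the other 3 h libraries in 1 µM. Without it, 2345 genes changed over time, against 3417 with it. Replicate 3 at 24 h had 0.31 CPM of Xist, the transcript of the inactive X chromosome, against 117 to 495 CPM in the other 1 µM libraries, and its 4 Y-linked genes summed to 178 CPM, against 34.7 to 126 CPM in the others. Without it, 2938 genes changed over time. The other 1 µM libraries each held both Xist and Y-linked transcripts, as a mix of male and female embryos would.

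Between 24 h and 3 h in 1 µM BPDP, most genes of the cartilage, muscle fibre and sterol synthesis lists rose, and most genes of the cell division and red blood cell lists fell. Of the skin and macrophage lists 11 of 18 and 10 of 18 rose, and of the limb patterning and blood vessel lists 12 of 27 and 8 of 18 fell. Of 15462 genes tested, 3417 (22.1%) changed at an adjusted p under 0.05 (edgeR quasi-likelihood test, Benjamini-Hochberg over all genes tested). Of these, 1886 (12.2%) were higher at 24 h and 1531 (9.9%) were lower. Changes of at least 2-fold were called for 519 genes that rose (3.36%) and 235 that fell (1.52%). Over all tested genes the median change was 0.0085 on the log2 scale. Log2 fold changes are 24 h over 3 h and are given ± SE, and mean levels are given as CPM ± SD, with n = 4 libraries per group. The 8 libraries did not overlap between times for 3847 genes (24.9%). Among 14239 protein-coding genes, 1823 rose and 1507 fell. Among 354 lincRNA genes, 23 rose and 6 fell.

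Most genes that changed over the same interval in DMSO also changed in 1 µM. In DMSO, 1494 of 15640 genes tested (9.55%) were called, 852 (5.45%) higher and 642 (4.1%) lower at 24 h. The comparison in 1 µM and the comparison in DMSO share no library. Over the 15254 genes tested in both, 3397 were called in 1 µM and 1487 in DMSO, and 1277 were called in both, which is 37.6% of the calls in 1 µM and 85.9% of those in DMSO. Of these, 1276 moved in the same direction, and Ptch1 was the exception. Of the 3397 genes called in 1 µM, 3331 (98.1%) had the same sign in DMSO. Genes called in both had a median absolute log2 fold change of 0.81 in 1 µM and 0.71 in DMSO, and 821 of them had the larger size in 1 µM. The median standard error was 0.13 in 1 µM and 0.15 in DMSO. The larger number of calls in 1 µM came with both larger changes and smaller errors. With the spread shared over all 24 libraries in 1 fit, 3317 genes (19.9%) were called in 1 µM and 2739 (16.4%) in DMSO. The number called in DMSO was 791 without the DMSO 3 h replicate 3 library and 834 without DMSO 3 h replicate 4, against 1494 with all 8. DMSO 3 h replicate 4 held 4.46% of its counts in Yam1. DMSO 3 h replicates 1 and 2 had 0.405 and 0.379 CPM of Xist. The DMSO 24 h libraries of the same numbers had 707 and 651 CPM.

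**Figure D1:**
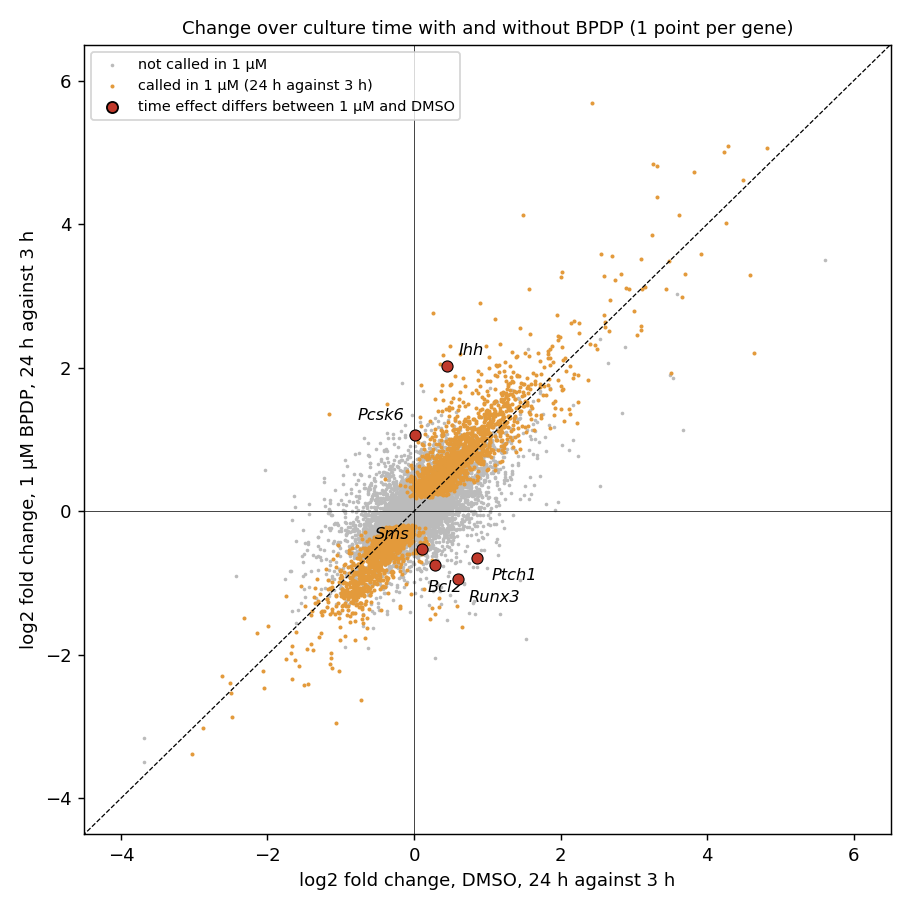
Each point is 1 of 15254 genes, with its log2 fold change of 24 h over 3 h in 1 µM BPDP against the same in DMSO, the dashed line marks equal change, and 5 genes lie outside the axes. Most points run along the diagonal (Pearson r 0.803 across genes, a description with no test), and the labelled genes, Ihh and Ptch1 among them, lie off it.

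In 1 µM the hedgehog ligands Ihh and Shh rose, while the targets Ptch1 and Hhip fell. Ihh, the ligand of prehypertrophic cartilage, had 97.9, 104, 112 and 101 CPM at 24 h, against 26.5, 28.6, 23.9 and 24.1 CPM at 3 h. Every 24 h library lay above every 3 h library, and the log2 fold change was 2.03 ± 0.086 (adjusted p = 1.39e-09). In DMSO, Ihh had 28.1, 46.2, 37.4 and 35.98 CPM at 24 h, against 30.7, 26.01, 26.8 and 24.7 CPM at 3 h (log2 fold change 0.46, adjusted p = 0.0608). The rise in 1 µM exceeded that in DMSO by 1.56 on the log2 scale (interaction contrast in a fit of all 24 libraries, adjusted p = 1.03e-05). That difference was not called within replicates 1 and 2 alone. Set against the time effect in 10 µM, that of Ihh in 1 µM differed by -0.38, which did not pass the test (adjusted p = 0.437). Shh, the ligand of the posterior limb bud, had 2.001, 1.102, 0.982 and 0.877 CPM at 24 h, against 0.316, 0.215, 0.361 and 0.126 CPM at 3 h, low in all 8 libraries but without overlap (log2 fold change 2.25 ± 0.50, adjusted p = 0.00463). Per kilobase of gene length, Ihh averaged 42.1 CPM at 24 h and 10.4 CPM at 3 h, and Shh averaged 0.461 CPM at 24 h and 0.0945 CPM at 3 h.

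Among the targets, Ptch1, the receptor, had 36.02, 26.5, 22.7 and 25.04 CPM at 24 h, against 54.6, 43.2, 32.3 and 44.8 CPM at 3 h. Its groups overlapped in a single pair of values, and the level was lower at 24 h in each replicate number (log2 fold change -0.65 ± 0.17, adjusted p = 0.0168). Without the 24 h replicate 2 library the call was lost (adjusted p = 0.0616). In DMSO the same gene rose, with 97.6, 85.8, 68.1 and 75.3 CPM at 24 h, against 65.7, 38.4, 41.9 and 34.5 CPM at 3 h, higher at 24 h in each replicate number (log2 fold change 0.86, adjusted p = 0.019). The difference between the time effects was -1.52 on the log2 scale (adjusted p = 0.0304). That call was lost in 12 of 16 fits that each left out 1 library of the 4 groups, with an adjusted p of up to 0.13. The 4 libraries without which it held were 24 h replicate 1 and 3 h replicate 3 in 1 µM, DMSO 24 h replicate 3 and DMSO 3 h replicate 1. The call was also lost with only those 16 libraries in the fit (adjusted p = 0.138), and it passed with the replicate block (adjusted p = 1.01e-05).

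Hhip, a membrane protein that binds and sequesters hedgehog ligands, had 5.83, 5.16, 6.15 and 7.84 CPM at 24 h, against 16.5, 17.6, 13.96 and 15.6 CPM at 3 h. The groups were fully separated (log2 fold change -1.33 ± 0.16, adjusted p = 2.39e-05). In DMSO Hhip had 10.5, 26.6, 18.9 and 20.9 CPM at 24 h, against 18.4, 16.8, 13.4 and 12.8 CPM at 3 h (log2 fold change 0.34, adjusted p = 0.414). The difference between the time effects, -1.68, did not pass the test (adjusted p = 0.151), but passed it without the DMSO 24 h replicate 1 library (adjusted p = 0.0145).

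Gli1, the transcriptional activator read most often as the output of the pathway, had 34.7, 12.8, 9.62 and 11.2 CPM at 24 h, against 41.2, 51.5, 34.1 and 36.97 CPM at 3 h. Replicate 1 at 24 h stood apart from the other 3 and lay within the 3 h range. With all 8 libraries the log2 fold change was -1.25 ± 0.44 (adjusted p = 0.098), and without that library it was -1.86 (adjusted p = 4.96e-06). With all 8 libraries kept, Gli1 was called by DESeq2 (adjusted p = 0.0269), in the fit of all 24 libraries (adjusted p = 0.024) and with a covariate for replicates 1 and 2 against 3 and 4 (adjusted p = 0.0393). It was not called with the replicate block, with DESeq2 size factors or with no count filter. In DMSO, Gli1 had 102, 129, 100.1 and 93.1 CPM at 24 h, against 64.9, 73.4, 54.5 and 49.1 CPM at 3 h, higher in every 24 h library (log2 fold change 0.82, adjusted p = 0.00221). The difference between the time effects was -2.08 with all libraries (adjusted p = 0.619) and passed without the 24 h replicate 1 library (adjusted p = 0.0213). In 10 µM, Gli1 had 2.79, 2.48, 0.128 and 1.49 CPM at 24 h, against 44.4, 39.8, 22.5 and 24.8 CPM at 3 h. The Gli1 time effect in 1 µM minus that in 10 µM was 2.94 (adjusted p = 0.0537, and 0.0136 with the replicate block).

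Foxf2, a forkhead factor of hedgehog-responsive mesenchyme, rose, with 31.6, 23.7, 29.7 and 25.4 CPM at 24 h, against 19.4, 19.2, 15.1 and 11.7 CPM at 3 h. Foxf2 changed by 0.77 ± 0.16 on the log2 scale (adjusted p = 0.00237). Pthlh, the ligand that Ihh induces at the ends of the cartilage, did not pass the test (6.52 ± 1.06 CPM at 24 h and 7.36 ± 0.866 CPM at 3 h, adjusted p = 0.59). Of the 5 tested members of the target list (Foxf1 and Foxl1 were too low to test), 1 rose and 2 fell in 1 µM, and 2 rose and none fell in DMSO, against 12.2% of all tested genes that rose and 9.9% that fell in 1 µM, and 5.45% and 4.1% in DMSO. The number that fell was 3 without the 24 h replicate 1 library and 1 without the 24 h replicate 2 library. The median log2 fold change of the list was -0.65 in 1 µM and 0.53 in DMSO.

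**Figure D2:**
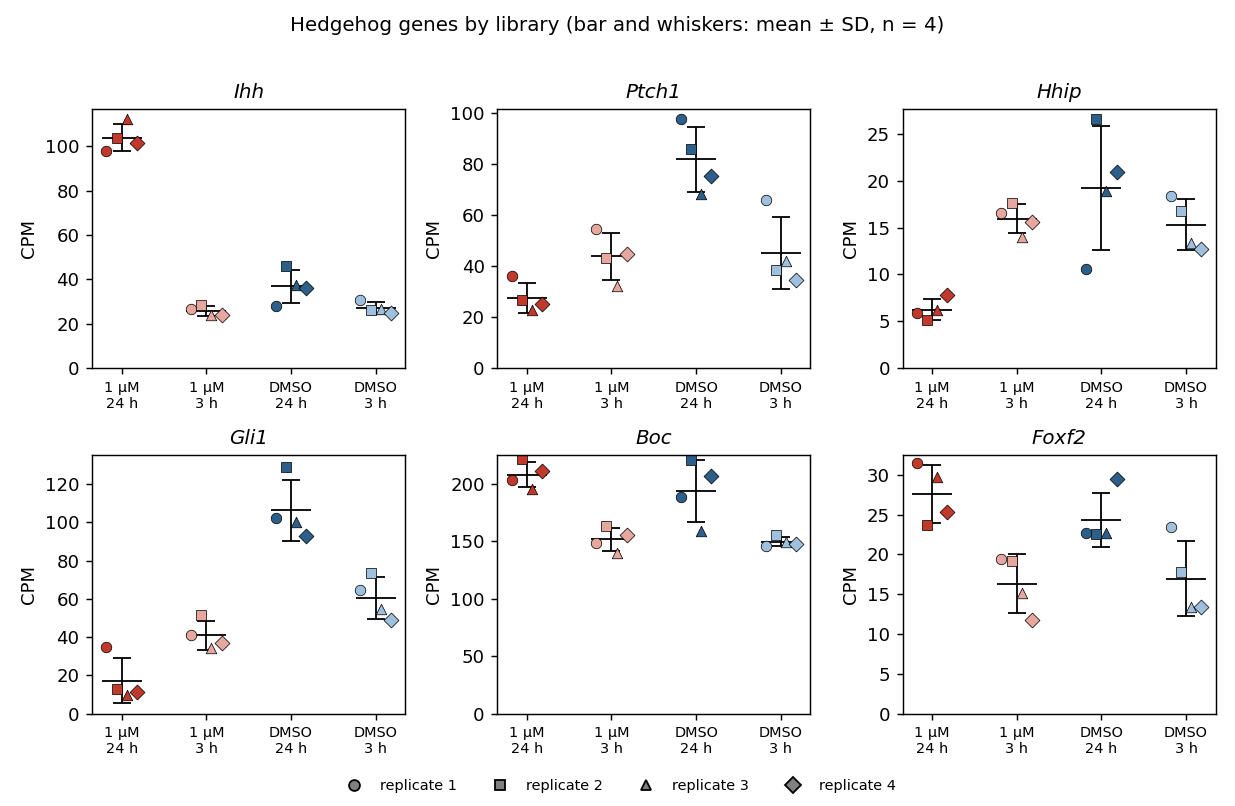
Each panel gives the CPM of 1 gene in every library of 4 groups, from left to right 1 µM at 24 h, 1 µM at 3 h, DMSO at 24 h and DMSO at 3 h, with the mean as a line and the SD as whiskers. Ihh is highest in 1 µM at 24 h (97.9 to 112 CPM), and Gli1 and Ptch1 are highest in DMSO at 24 h.

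Of the 19 tested genes for hedgehog ligands, their release, co-receptors and signal transduction, 6 rose and none fell in 1 µM (1 fell with the replicate block), where 12.2% of all tested genes rose. In DMSO 1 of 18 tested rose and none fell, and 5.45% of all tested genes rose. Boc, a co-receptor for the ligands, averaged 208 ± 10.9 CPM at 24 h and 152 ± 10.02 CPM at 3 h. Boc changed by 0.47 ± 0.073 on the log2 scale (adjusted p = 0.000277). Scube2, which helps release the lipid-bearing ligand, averaged 12.7 ± 2.01 CPM at 24 h and 6.01 ± 1.05 CPM at 3 h. Scube2 changed by 1.09 ± 0.18 on the log2 scale (adjusted p = 0.000357). Cdon, a related co-receptor, and Disp1, which exports the ligand, had smaller rises (log2 fold changes 0.33 ± 0.087 and 0.25 ± 0.082). The Cdon call was lost without the 3 h replicate 3 library (adjusted p = 0.0577). The Disp1 call was lost without any 1 of 6 libraries, all but 24 h replicate 3 and 3 h replicate 2 (adjusted p up to 0.141). The transducer Smo (-0.028 ± 0.07), the transcription factors Gli2 (0.011 ± 0.082) and Gli3 (-0.17 ± 0.083) and the inhibitor Sufu (-0.16 ± 0.067) did not pass the test. Without the 24 h replicate 2 library Gli3 passed it (adjusted p = 0.0242).

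Cartilage genes rose almost throughout. Of 24 tested cartilage genes, 22 rose and none fell in 1 µM, where 12.2% of all tested genes rose. In DMSO 18 of 23 rose, against 5.45% of all tested genes. The median log2 fold changes were 1.33 in 1 µM and 1.02 in DMSO. In 1 µM the summed level of the list was 13960 to 14820 CPM at 24 h and 5903 to 7330 CPM at 3 h. Col2a1, the main collagen of cartilage, had 6125, 5961, 6052 and 6231 CPM at 24 h, against 2709, 2764, 2252 and 2293 CPM at 3 h, without overlap (log2 fold change 1.30 ± 0.11, adjusted p = 9.73e-07). Acan, the large proteoglycan of cartilage, averaged 417 ± 51.7 CPM at 24 h and 165 ± 42.5 CPM at 3 h. Acan changed by 1.35 ± 0.18 on the log2 scale (adjusted p = 0.000425). Fgfr3, which restrains chondrocyte proliferation, had 167, 175, 199 and 209 CPM at 24 h, against 87.1, 102, 74.6 and 97.1 CPM at 3 h. Fgfr3 changed by 1.07 ± 0.10 on the log2 scale (adjusted p = 4.17e-06).

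Cytl1, a secreted protein of chondrocytes, had 183, 239.99, 199 and 200.4 CPM at 24 h, against 46.9, 53.8, 35.2 and 28.8 CPM at 3 h, a log2 fold change of 2.33 ± 0.20 (adjusted p = 7.71e-05) against 1.17 in DMSO; the difference, 1.15, did not pass the test (adjusted p = 0.633). Sox6, a partner of Sox9 in cartilage, averaged 95.02 ± 7.95 CPM at 24 h and 58.7 ± 3.85 CPM at 3 h. Sox6 changed by 0.71 ± 0.082 on the log2 scale (adjusted p = 1.89e-05). Sox9 itself, the factor that starts the cartilage programme, averaged 523 ± 55.3 CPM at 24 h and 537 ± 55.6 CPM at 3 h and did not pass the test (log2 fold change -0.022 ± 0.10, adjusted p = 0.903). In bulk tissue, more cells of a type and more RNA per cell cannot be told apart.

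Among genes of enlarging cartilage and bone, some members such as Col10a1 and Ibsp rose far more than the cartilage matrix genes, with a wide spread in which replicates 1 and 2 stood above 3 and 4. Of 10 tested hypertrophic genes, 6 rose and 1 fell in 1 µM (median log2 fold change 0.72), where 12.2% of all tested genes rose and 9.9% fell. In DMSO 4 rose and none fell, and 5.45% of all tested genes rose. Col10a1, the collagen of hypertrophic cartilage, had 199, 217, 77.96 and 53.5 CPM at 24 h, against 5.56, 7.301, 3.09 and 3.78 CPM at 3 h. Replicates 1 and 2 were above replicates 3 and 4 at both times, and every 24 h library was above every 3 h library (log2 fold change 4.80 ± 0.64, adjusted p = 0.00323, and 4.77e-07 with the replicate block). In DMSO the Col10a1 change was 3.32 on the log2 scale (adjusted p = 0.108). Ibsp, a bone matrix sialoprotein, had 262, 302, 62.8 and 43.3 CPM at 24 h, against 7.96, 10.6, 0.412 and 0.819 CPM at 3 h. Ibsp changed by 5.09 ± 1.15 on the log2 scale (adjusted p = 0.0246). The Ibsp call was lost without the 24 h replicate 1 library (adjusted p = 0.0566) and without the 3 h libraries of replicates 1, 3 and 4 (adjusted p 0.058 to 0.0688), and was kept with the replicate block (adjusted p = 0.000426).

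Panx3, a channel protein of prehypertrophic cartilage and osteoblasts, had 52.04, 50.1, 27.7 and 25.3 CPM at 24 h, against 14.8, 16.5, 8.35 and 7.24 CPM at 3 h, with the same order of replicates (log2 fold change 1.74 ± 0.38, adjusted p = 0.0165). Alpl, the phosphatase needed for mineral, had 31.4, 27.1, 14.6 and 15.9 CPM at 24 h, against 14.5, 12.5, 7.42 and 9.57 CPM at 3 h. Alpl changed by 1.03 ± 0.29 on the log2 scale (adjusted p = 0.0334). Alpl was not called without any 1 of 5 libraries, 24 h replicates 1 and 2 and 3 h replicates 2, 3 and 4 (adjusted p up to 0.0987), and was called with the replicate block (adjusted p = 5.21e-05). Spp1, osteopontin, had 22.5, 22.1, 3.36 and 4.82 CPM at 24 h, against 1.77, 1.77, 3.14 and 1.89 CPM at 3 h: the 24 h libraries of replicates 1 and 2 were far above the rest, and those of replicates 3 and 4 were close to the 3 h libraries. The Spp1 call (log2 fold change 2.62 ± 0.74, adjusted p = 0.0477) was lost without 24 h replicate 1 or 2 or any 1 of the 3 h libraries (adjusted p up to 0.125) and with the replicate block (adjusted p = 0.154).

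**Figure D3:**
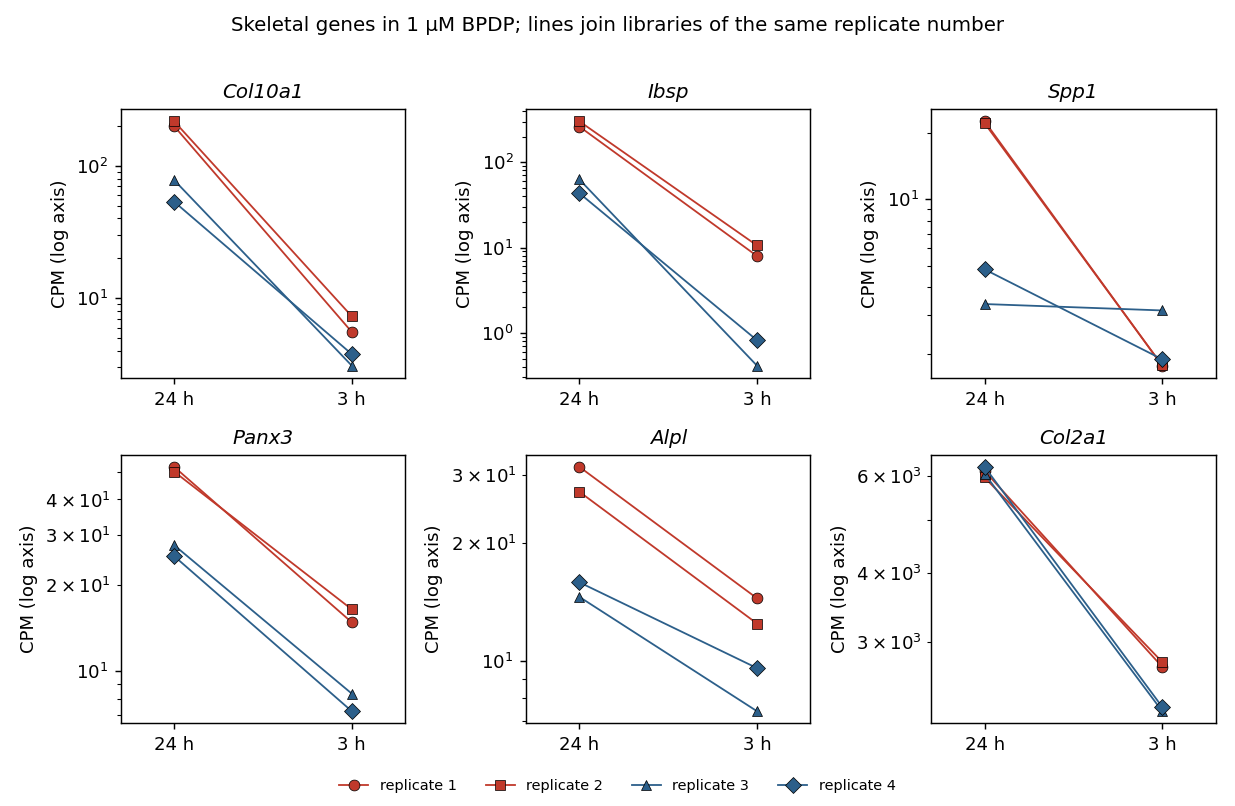
For 6 skeletal genes, lines join the 1 µM libraries of the same replicate number at 24 h (left) and 3 h (right) on a log axis of CPM, replicates 1 and 2 in red and 3 and 4 in blue. All 4 lines of Col10a1, Ibsp, Panx3, Alpl and Col2a1 are higher at 24 h, and the red lines of Col10a1 and Ibsp lie above the blue ones.

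Mef2c, a factor that drives hypertrophy, had 238, 239.7, 254 and 232 CPM at 24 h, against 132, 113, 121 and 115 CPM at 3 h, with a spread far smaller than that of Col10a1 (log2 fold change 1.02 ± 0.073, adjusted p = 2.89e-07). Pth1r, the receptor for the Pthlh protein, averaged 195 ± 14.03 CPM at 24 h and 146 ± 15.8 CPM at 3 h. Pth1r changed by 0.43 ± 0.085 on the log2 scale (adjusted p = 0.00194), against a log2 fold change of -0.009 in DMSO. The bone and hypertrophy factors Runx2 and Sp7 did not pass the test in 1 µM (log2 fold changes 0.14 ± 0.13 and 0.43 ± 0.20, adjusted p 0.476 and 0.157), whereas both rose in DMSO (log2 fold changes 0.62 and 0.72, adjusted p 0.011 and 0.0422). The differences between the time effects, -0.48 for Runx2 and -0.30 for Sp7, did not pass the test (adjusted p 1 and 1). Of 14 tested osteoblast genes 8 rose in 1 µM, where 12.2% of all tested genes rose. But the osteoblast count was 1 without the 24 h replicate 1, the 3 h replicate 3 or the 3 h replicate 4 library. It was 3 without 24 h replicate 2, and 4 without 3 h replicate 1 or 2.

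Runx3, a Runx factor that acts in cartilage maturation, was the 1 hypertrophic gene that fell. It had 13.9, 9.57, 8.79 and 8.66 CPM at 24 h, against 23.4, 20.5, 18.9 and 16.4 CPM at 3 h, without overlap (log2 fold change -0.94 ± 0.17, adjusted p = 0.000832). In DMSO it had 61.3, 32.8, 40.4 and 38.7 CPM at 24 h, against 38.8, 25.5, 24.6 and 26.4 CPM at 3 h (log2 fold change 0.59, adjusted p = 0.0954). The time effects differed by -1.54 on the log2 scale (adjusted p = 0.0188), a call lost in 8 of 16 fits without 1 library (adjusted p up to 0.0877). These were the fits without 24 h replicates 2, 3 or 4 or 3 h replicates 1 or 2 in 1 µM, or DMSO 3 h replicates 2, 3 or 4. It was also lost in the fit of those 16 libraries alone (adjusted p = 0.0913).

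Muscle fibre genes rose, and most muscle precursor factors did not pass the test. Of 28 tested genes of the contractile apparatus, 27 rose and none fell in 1 µM, as in DMSO, where 27 rose. Of all tested genes, 12.2% rose in 1 µM and 5.45% in DMSO. The medians of the list were 1.32 in 1 µM and 1.07 in DMSO. In 1 µM its summed level was 5832 to 7139 CPM at 24 h and 2339 to 3134 CPM at 3 h. Acta1, skeletal muscle actin, had 752, 650.2, 601 and 597 CPM at 24 h, against 264, 218, 209 and 173 CPM at 3 h. Acta1 changed by 1.60 ± 0.12 on the log2 scale (adjusted p = 5.66e-07). Chrna1, a subunit of the muscle acetylcholine receptor, had 62.9, 58.7, 56.7 and 64.1 CPM at 24 h, against 22.99, 22.5, 20.5 and 23.4 CPM at 3 h. Chrna1 changed by 1.45 ± 0.085 on the log2 scale (adjusted p = 3.65e-08). No 24 h value of either gene reached down to a 3 h value. Mybph, a thick filament protein, averaged 91.1 ± 7.86 CPM at 24 h and 31.1 ± 2.77 CPM at 3 h. Mybph changed by 1.56 ± 0.091 on the log2 scale (adjusted p = 3.65e-08).

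Of 12 myogenic factors and precursor genes, 4 rose and none fell, where 12.2% of all tested genes rose. Myog, which drives fusion of myoblasts, averaged 177 ± 16.4 CPM at 24 h and 102 ± 6.76 CPM at 3 h. Myog changed by 0.82 ± 0.08 on the log2 scale (adjusted p = 4.05e-06). Myf6, a late myogenic factor, had 0.765, 1.93, 0.879 and 0.712 CPM at 24 h, against 0.253, 0.215, 0.103 and 0.189 CPM at 3 h. Myf6 changed by 2.47 ± 0.55 on the log2 scale (adjusted p = 0.00483). Myod1, which commits cells to muscle, averaged 84.9 ± 3.34 CPM at 24 h and 76.5 ± 4.23 CPM at 3 h and did not pass the test (adjusted p = 0.114). Scx, the tendon factor, had 64.9, 77.8, 52.6 and 77.97 CPM at 24 h, against 38.3, 44.9, 45.4 and 45.6 CPM at 3 h. Scx changed by 0.66 ± 0.12 on the log2 scale (adjusted p = 0.001). Col14a1, a collagen of tendon and other dense connective tissue, averaged 128 ± 23.4 CPM at 24 h and 65.3 ± 13.3 CPM at 3 h. Col14a1 changed by 0.98 ± 0.16 on the log2 scale (adjusted p = 0.00223). In all, 4 of 10 tendon genes rose and none fell, where 12.2% of all tested genes rose. With the replicate block 8 tendon genes were called. Ctgf, a secreted matrix regulator, had 118, 129, 97.6 and 99.6 CPM at 24 h, against 27.7, 43.8, 21.6 and 15.9 CPM at 3 h. Ctgf changed by 2.04 ± 0.31 on the log2 scale (adjusted p = 0.00423), and in DMSO its change was 1.12 (adjusted p = 0.175).

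Cell division genes fell. All 24 tested genes of the G2 and M phases were called lower at 24 h in 1 µM and in DMSO. Of all tested genes, 9.9% fell in 1 µM and 4.1% in DMSO. The median log2 fold changes of the list were -1.17 in 1 µM and -0.82 in DMSO. In 1 fit of all 24 libraries the medians were -1.19 in 1 µM, -1.78 in 10 µM and -0.83 in DMSO. Mki67, a protein of cycling cells, had 131, 107, 111 and 101 CPM at 24 h, against 273, 284, 298 and 256 CPM at 3 h. Mki67 changed by -1.29 ± 0.086 on the log2 scale (adjusted p = 1.2e-07). Top2a, the topoisomerase of mitotic chromosomes, had 139, 121, 142 and 139 CPM at 24 h, against 327, 323, 336 and 343 CPM at 3 h. Top2a changed by -1.28 ± 0.074 on the log2 scale (adjusted p = 3.65e-08). Both genes were more than 2-fold lower at 24 h, and no 24 h library came near a 3 h library. Ccnb2, a cyclin of mitotic entry, averaged 25.7 ± 1.06 CPM at 24 h and 62.4 ± 2.98 CPM at 3 h. Ccnb2 changed by -1.27 ± 0.08 (adjusted p = 7.3e-08). Plk1, a mitotic kinase, averaged 33.9 ± 1.58 CPM at 24 h and 78.00 ± 3.74 CPM at 3 h. Plk1 changed by -1.19 ± 0.077 (adjusted p = 9.25e-08). Cdc20, which starts the degradation of mitotic proteins, averaged 40.9 ± 6.704 CPM at 24 h and 90.2 ± 8.37 CPM at 3 h. Cdc20 changed by -1.12 ± 0.11 (adjusted p = 6.48e-06), and its 24 h replicate 2 library was the lowest at 30.9 CPM. The log2 fold change was more negative in 1 µM than in DMSO for all 24 genes, by -0.51 for Mki67 and -0.55 for Top2a, which did not pass the test (adjusted p 0.191 and 0.191). Mki67 passed it without the 24 h replicate 1 library (adjusted p = 0.0267), and Top2a with the replicate block (adjusted p = 0.0279).

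Of 21 tested genes of S phase entry and DNA replication, 19 fell and none rose, where 9.9% of all tested genes fell. Mcm5, a subunit of the replicative helicase, had 107, 81.5, 82.9 and 79.7 CPM at 24 h, against 204, 176, 178 and 185 CPM at 3 h. Mcm5 changed by -1.07 ± 0.092 on the log2 scale (adjusted p = 1.29e-06). Rrm2, a subunit of the enzyme that makes deoxynucleotides, averaged 50.3 ± 3.73 CPM at 24 h and 95.4 ± 5.94 CPM at 3 h. Rrm2 changed by -0.91 ± 0.08 on the log2 scale (adjusted p = 1.52e-06). Pcna, the sliding clamp of DNA polymerase, averaged 88.9 ± 0.989 CPM at 24 h and 140.1 ± 5.65 CPM at 3 h. Pcna changed by -0.64 ± 0.063 on the log2 scale (adjusted p = 4.05e-06). Ccnd1, the cyclin that carries growth signals to the cell cycle, had 125, 98.7, 94.6 and 111 CPM at 24 h, against 183, 154, 154 and 166 CPM at 3 h. Ccnd1 changed by -0.60 ± 0.091 on the log2 scale (adjusted p = 0.000222), against 0.11 in DMSO; the difference, -0.72, did not pass the test (adjusted p = 0.0888, and 0.0487 with the replicate block). It passed without 24 h replicate 1 in 1 µM, DMSO 24 h replicate 1 or DMSO 24 h replicate 2 (adjusted p 0.0205 to 0.0387). Cdkn1a, the p21 inhibitor of cell cycle kinases and a p53 target, rose, with 171, 147, 173 and 146 CPM at 24 h, against 76.98, 71.99, 74.5 and 72.7 CPM at 3 h. Cdkn1a changed by 1.12 ± 0.074 on the log2 scale (adjusted p = 1.2e-07). Ccng1, also a p53 target, averaged 86.5 ± 6.38 CPM at 24 h and 53.03 ± 5.65 CPM at 3 h. Ccng1 changed by 0.72 ± 0.089 on the log2 scale (adjusted p = 3.47e-05). Over 16 tested p53 targets, 6 rose and 1 fell, where 12.2% of all tested genes rose and 9.9% fell.

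The promoters of the mitotic genes that fell together are shown because they carry letters known from cell cycle control: the CHR element (TTTGAA or TTCGAA), through which DREAM and MuvB complexes act, and the CCAAT box, bound by NF-Y. Each window runs from 250 bases before to 50 bases after the start site in RefSeq (GRCm38.p6), 5′ to 3′ on the strand of the gene, with matches in either orientation in capitals. TTCGAA reads the same on both strands, and no CHR match overlaps a CCAAT match in these windows. Mcm5 is shown for its E2F letters, and in it only those are in capitals.
Plk1, chr7:122159185-122159484, plus strand: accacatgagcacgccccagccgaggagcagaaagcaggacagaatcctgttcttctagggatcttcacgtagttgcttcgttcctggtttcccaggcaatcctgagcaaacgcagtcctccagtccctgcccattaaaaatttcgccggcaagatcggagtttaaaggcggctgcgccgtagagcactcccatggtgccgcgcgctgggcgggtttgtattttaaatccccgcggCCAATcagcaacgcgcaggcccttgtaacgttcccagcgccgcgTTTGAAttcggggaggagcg
Cdc20, chr4:118437294-118437593, minus strand: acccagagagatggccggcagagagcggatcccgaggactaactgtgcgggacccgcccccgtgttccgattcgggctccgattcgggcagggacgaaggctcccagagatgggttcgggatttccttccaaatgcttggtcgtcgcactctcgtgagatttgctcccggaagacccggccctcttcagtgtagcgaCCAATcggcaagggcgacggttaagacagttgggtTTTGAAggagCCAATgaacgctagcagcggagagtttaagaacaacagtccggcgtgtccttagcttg
Ccnb2, chr9:70421505-70421804, minus strand: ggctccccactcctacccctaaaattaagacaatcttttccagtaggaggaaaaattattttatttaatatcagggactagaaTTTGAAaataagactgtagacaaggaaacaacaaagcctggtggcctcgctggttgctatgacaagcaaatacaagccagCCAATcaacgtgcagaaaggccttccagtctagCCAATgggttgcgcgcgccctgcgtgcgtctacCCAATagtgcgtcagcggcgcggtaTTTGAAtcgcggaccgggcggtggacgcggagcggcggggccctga
Top2a, chr11:99024140-99024439, minus strand: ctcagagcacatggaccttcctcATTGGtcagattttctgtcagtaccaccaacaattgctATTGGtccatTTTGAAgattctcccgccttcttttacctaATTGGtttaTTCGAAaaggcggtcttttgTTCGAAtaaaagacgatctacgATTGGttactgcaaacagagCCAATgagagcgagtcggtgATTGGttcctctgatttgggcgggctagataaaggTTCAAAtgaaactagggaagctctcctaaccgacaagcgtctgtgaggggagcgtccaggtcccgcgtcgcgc
Mcm5, chr8:75109259-75109558, plus strand: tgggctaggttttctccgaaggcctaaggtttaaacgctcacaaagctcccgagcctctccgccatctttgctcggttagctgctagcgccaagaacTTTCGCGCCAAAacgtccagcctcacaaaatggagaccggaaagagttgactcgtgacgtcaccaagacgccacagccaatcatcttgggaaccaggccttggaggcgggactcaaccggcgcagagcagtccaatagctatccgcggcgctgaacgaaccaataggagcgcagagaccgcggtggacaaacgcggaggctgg

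Of the 24 genes of the G2 and M list, 19 matched a RefSeq promoter, and 15 of these held both a CHR and a CCAAT match, against 7.52% of the 32851 promoters in the table. A CHR match, with or without the CCAAT box, was in 15 of 19 and in 19.2% of all promoters, and a CCAAT match was in 17 of 19 and in 37.4% of all. Ccnb1 and Cenpe held a CCAAT match and no CHR match, and Birc5 and Nusap1 lacked both in this window. In Plk1 the CHR letters lay 31 bases after the start site with CCAAT letters 14 bases before it. In Cdc20 they lay 18 bases before the start site, with CCAAT letters 53 and 8 bases before it. For S phase genes the E2F letters TTTCCCGC, TTTGGCGC or TTTCGCGC were searched, and 6 of 18 matched promoters held one, against 1.84% of all promoters; in Mcm5 TTTCGCGC and its overlapping neighbour on the other strand form 1 stretch of capitals. Of the hedgehog targets, 4 had a promoter in the table, and Gli1 was not among them. None of the 4 held the GLI site GACCACCCA in this window, which 0.253% of all promoters did. The list counts take 1 promoter per gene, while the shares of all are over every promoter, of genes expressed in the limb bud or not. These matches describe letters in a window, not bound sites.

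Genes that pattern the limb mesenchyme fell or did not pass the test. Of 27 tested, 12 fell and none rose in 1 µM, where 9.9% of all tested genes fell. The median log2 fold change of the list was -0.28 in 1 µM and in DMSO. Without the 3 h replicate 3 library the number that fell was 7. Msx1, a homeobox factor of undifferentiated distal mesenchyme and a BMP target, had 61.1, 45.3, 72.01 and 66.7 CPM at 24 h, against 131, 134, 149 and 141 CPM at 3 h. Msx1 changed by -1.16 ± 0.12 on the log2 scale (adjusted p = 1.26e-05). Its relative Msx2 had 22.8, 18.5, 27.6 and 26.03 CPM at 24 h, against 46.2, 42.2, 41.7 and 41.1 CPM at 3 h. Msx2 changed by -0.83 ± 0.12 on the log2 scale (adjusted p = 0.000103). The 2 times were separated for both genes. Hoxd13, the digit Hox gene, averaged 244 ± 32.1 CPM at 24 h and 343 ± 19.2 CPM at 3 h. Hoxd13 changed by -0.47 ± 0.094 on the log2 scale (adjusted p = 0.00201). Shox2, which shapes the proximal limb, averaged 74.4 ± 10.3 CPM at 24 h and 112 ± 10.4 CPM at 3 h. Shox2 changed by -0.58 ± 0.10 on the log2 scale (adjusted p = 0.000521). Tbx3, a T-box factor of the limb margins, averaged 47.1 ± 5.14 CPM at 24 h and 76.9 ± 8.32 CPM at 3 h. Tbx3 changed by -0.69 ± 0.10 on the log2 scale (adjusted p = 0.000121). Alx4, an anterior mesenchyme factor, averaged 10.02 ± 2.34 CPM at 24 h and 19.1 ± 1.76 CPM at 3 h. Alx4 changed by -0.92 ± 0.16 on the log2 scale (adjusted p = 0.000657). The general mesenchyme factor Prrx1 averaged 435 ± 48.4 CPM at 24 h and 484 ± 29.9 CPM at 3 h and did not pass the test (adjusted p = 0.317). Among 11 retinoic acid genes 6 fell and 1 rose, where 9.9% of all tested genes fell and 12.2% rose. Those that fell numbered 2, 3 and 2 without the 24 h replicate 3, the 3 h replicate 2 and the 3 h replicate 3 library.

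Blood vessel genes fell in part and unevenly. Of 18 tested endothelial genes, 8 fell and none rose, where 9.9% of all tested genes fell. All 18 log2 fold changes were negative (-3.38 to -0.0121). The number that fell was 12 with the replicate block, 12 without the 24 h replicate 1 library and 6 within replicates 1 and 2. The sum of the list was 385 to 485 CPM at 24 h and 614 to 657 CPM at 3 h. Aplnr, the apelin receptor of growing vessels, had 7.005, 6.82, 6.57 and 6.96 CPM at 24 h, against 74.1, 65.9, 76.8 and 71.2 CPM at 3 h, more than 10-fold lower (log2 fold change -3.38 ± 0.094, adjusted p = 5.11e-12). Plvap, which forms the diaphragms of capillary pores, had 10.9, 8.33, 8.89 and 10.4 CPM at 24 h, against 54.4, 50.3, 57.8 and 52.3 CPM at 3 h. Plvap changed by -2.46 ± 0.11 on the log2 scale (adjusted p = 1.9e-09). The general endothelial markers had smaller differences. Cdh5, the endothelial cadherin, averaged 70.7 ± 8.71 CPM at 24 h and 90.2 ± 4.396 CPM at 3 h. Cdh5 changed by -0.34 ± 0.087 on the log2 scale (adjusted p = 0.0109). Pecam1, an adhesion protein of endothelium, averaged 51.9 ± 8.53 CPM at 24 h and 64.1 ± 5.51 CPM at 3 h (-0.29 ± 0.11, adjusted p = 0.0708, and 0.0251 with the replicate block). Pecam1 also passed without 24 h replicate 1 or 2 (adjusted p 0.0292 and 0.0425). Of 7 pericyte and smooth muscle genes 4 rose, where 12.2% of all tested genes rose. Acta2, smooth muscle actin, averaged 284 ± 23.8 CPM at 24 h and 176 ± 18.6 CPM at 3 h. Acta2 changed by 0.70 ± 0.089 on the log2 scale (adjusted p = 4.18e-05).

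Red blood cell genes fell, 8 of 9 tested (2 within replicates 1 and 2 alone), where 9.9% of all tested genes fell. The summed level of the list was 2702 to 3839 CPM at 24 h and 4133 to 6817 CPM at 3 h. Slc4a1, the anion exchanger of red cells, had 2.53, 3.65, 5.38 and 7.01 CPM at 24 h, against 18.2, 9.39, 21.9 and 19.96 CPM at 3 h. Slc4a1 changed by -1.88 ± 0.34 on the log2 scale (adjusted p = 0.00347). Alas2, the first enzyme of red cell haem synthesis, had 12.2, 16.9, 8.01 and 11.7 CPM at 24 h, against 44.8, 22.9, 32.05 and 30.4 CPM at 3 h. Alas2 changed by -1.40 ± 0.25 on the log2 scale (adjusted p = 0.00277). Both were separated between times. In DMSO 2 of 9 red cell genes fell, against 4.1% of all tested genes.

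Macrophage genes rose in part: 10 of 18 tested rose and none fell, in 1 µM as in DMSO (with the replicate block 2 fell in 1 µM). Of all tested genes, 12.2% rose in 1 µM and 5.45% in DMSO. In 1 µM 13 of the 18 log2 fold changes were positive, and they ranged from -1.63 to 2.94. Without overlap between times, 8 members were higher and 2 lower at 24 h, against 12.2% and 12.7% of all tested genes. The sum of the list was 232 to 342 CPM at 24 h and 158 to 197 CPM at 3 h. Lyz2, lysozyme, had 38.7, 34.2, 35.5 and 29.04 CPM at 24 h, against 4.55, 5.26, 4.74 and 3.46 CPM at 3 h, a log2 fold change of 2.94 ± 0.15 (adjusted p = 7.94e-09). Cd68, a lysosomal protein of phagocytes, had 26.1, 29.5, 25.2 and 17.9 CPM at 24 h, against 7.199, 6.98, 6.23 and 6.61 CPM at 3 h. Cd68 changed by 1.88 ± 0.15 on the log2 scale (adjusted p = 7.36e-07). C1qa, a complement chain made by macrophages, had 36.97, 20.7, 28.6 and 25.04 CPM at 24 h, against 13.1, 17.02, 16.5 and 13.9 CPM at 3 h. C1qa changed by 0.89 ± 0.16 on the log2 scale (adjusted p = 0.00101). Gpnmb, a lysosomal membrane glycoprotein, had 56.7, 79.1, 21.2 and 50.6 CPM at 24 h, against 2.53, 1.61, 2.42 and 1.95 CPM at 3 h and was among the 12 genes with the largest rise (log2 fold change 4.62 ± 0.47, adjusted p = 0.000563). Of 10 interferon-stimulated genes 5 rose, where 12.2% of all tested genes rose. The count was 3 without the 24 h libraries of replicate 1 or 2 or the 3 h libraries of replicate 1 or 3. The summed level of the list was 96.9, 85.6, 49.2 and 41.8 CPM at 24 h, against 50.5, 52.5, 44.6 and 55.04 CPM at 3 h. Replicates 1 and 2 at 24 h lay above all 3 h libraries and replicates 3 and 4 did not, and in replicates 3 and 4 alone 0 genes of the list were called higher.

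Skin genes rose in 11 of 18 cases, where 12.2% of all tested genes rose. The level of the list differed widely among 24 h libraries (summed CPM 1990 to 4057 at 24 h and 1285 to 1863 at 3 h). Krt1, a keratin of the layers above the basal one, had 480.3, 154, 663 and 156 CPM at 24 h, against 44.5, 32.6, 12.4 and 33.6 CPM at 3 h. Krt1 changed by 3.58 ± 0.70 on the log2 scale (adjusted p = 0.0148, 0.0924 with the replicate block and 0.05 without 3 h replicate 4). Krt10, its partner, had 144, 66.8, 368 and 98.5 CPM at 24 h, against 15.7, 22.1, 9.69 and 13.4 CPM at 3 h. Krt10 changed by 3.49 ± 0.66 on the log2 scale (adjusted p = 0.0127, and 0.0822 with the block). The 24 h libraries of both keratins were all above the 3 h ones, with replicate 3 at 24 h the highest. Krt77, a keratin of sweat gland ducts and skin, had 27.4, 6.47, 148 and 18.4 CPM at 24 h, against 0, 0.376, 0.103 and 0.252 CPM at 3 h, a fitted log2 fold change of 8.04 ± 1.65 (adjusted p = 0.0175) that was not called without any 1 of the 3 h libraries (adjusted p up to 0.0641). Krt14, the basal layer keratin, had 727, 425, 525 and 529.7 CPM at 24 h, against 356, 283, 287 and 291 CPM at 3 h. Krt14 changed by 0.87 ± 0.14 on the log2 scale (adjusted p = 0.000792). Krt17, a keratin of periderm and stressed skin, had 524, 269, 245 and 211 CPM at 24 h, against 79.1, 73.2, 38.6 and 66.5 CPM at 3 h. Krt17 changed by 2.29 ± 0.38 on the log2 scale (adjusted p = 0.00758). The count of skin genes that rose was 7 without 3 h replicate 3, 6 without 3 h replicate 4, and 7 with the replicate block. Keratin genes are close relatives, and reads may be shared among them. Ly6d and Stfa3, both expressed in stratified epithelium, averaged 19.8 ± 7.21 CPM at 24 h and 1.25 ± 0.568 CPM at 3 h (4.01 ± 0.41) and 30.9 ± 16.3 CPM at 24 h and 1.49 ± 0.547 CPM at 3 h (4.38 ± 0.52), with adjusted p of 0.0001 and 0.00104.

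Among 8 Schwann cell genes 3 fell and 1 rose, where 9.9% of all tested genes fell and 12.2% rose. Without the 3 h replicate 3 library 1 fell. Sox10, the neural crest and glial factor, had 8.95, 9.57, 4.39 and 6.14 CPM at 24 h, against 21.2, 19.7, 17.00 and 18.6 CPM at 3 h. Sox10 changed by -1.39 ± 0.20 on the log2 scale (adjusted p = 0.000206). S100b, also expressed in cartilage, had 22.6, 22.3, 12.9 and 12.5 CPM at 24 h, against 4.55, 4.78, 2.89 and 2.897 CPM at 3 h. S100b changed by 2.23 ± 0.25 on the log2 scale (adjusted p = 3.13e-05). Ednrb, the endothelin receptor of neural crest cells and endothelium, had 8.95, 14.9, 8.995 and 9.48 CPM at 24 h, against 55.9, 40.4, 37.8 and 43.02 CPM at 3 h. Ednrb changed by -2.05 ± 0.18 on the log2 scale (adjusted p = 4.46e-06) and was among the 12 genes with the largest fall.

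**Figure D4:**
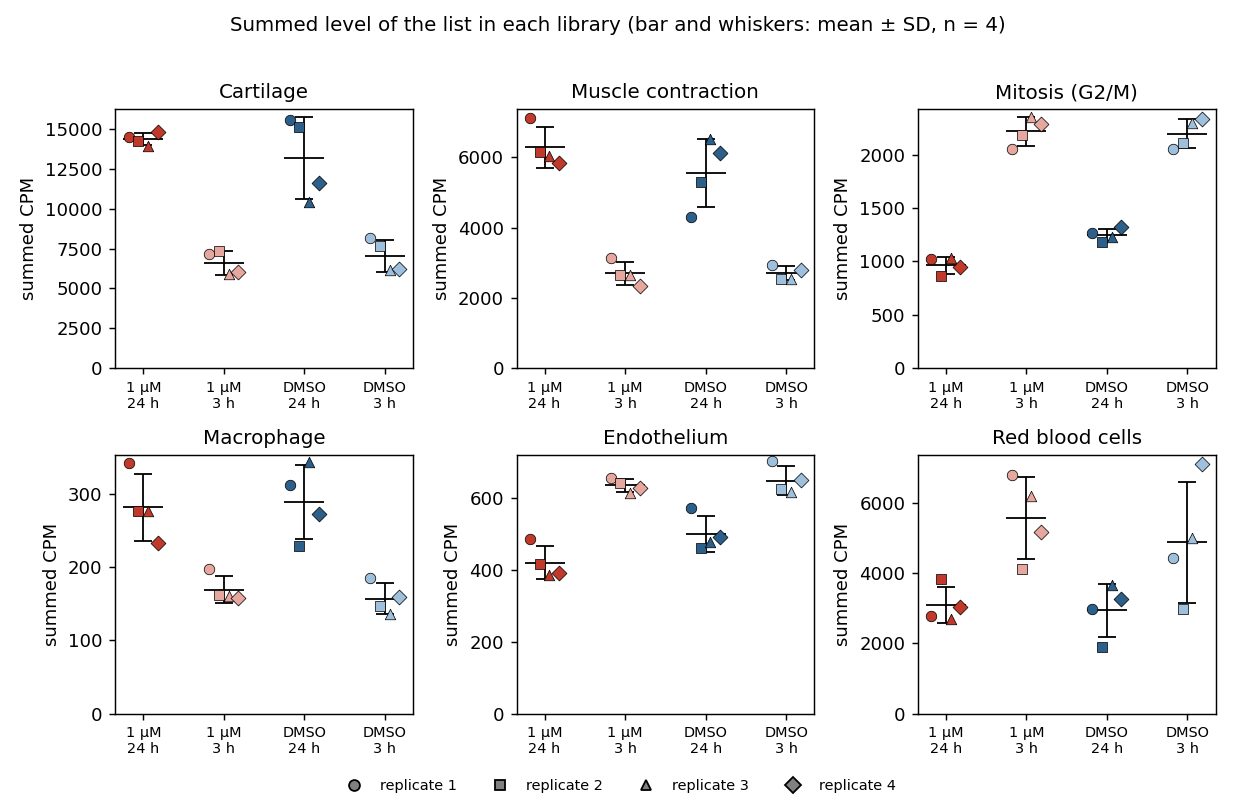
Summed CPM of 6 marker lists in every library of 4 groups, from left to right 1 µM at 24 h, 1 µM at 3 h, DMSO at 24 h and DMSO at 3 h. In 1 µM the cartilage and muscle sums at 24 h lie above those at 3 h, and the G2 and M, endothelial and red cell sums lie below, with the closest approach for red cells (highest 3839 CPM at 24 h, lowest 4133 CPM at 3 h).

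Sterol synthesis genes rose together. Of 24 tested genes of cholesterol synthesis and its control 19 rose and none fell in 1 µM, where 12.2% of all tested genes rose. In DMSO 14 rose and none fell, where 5.45% of all tested genes rose. The medians were 0.63 in 1 µM and 0.57 in DMSO. In the fit of all 24 libraries the medians were 0.62 in 1 µM, 1.09 in 10 µM and 0.56 in DMSO. Fdps, which makes farnesyl diphosphate, had 214, 226, 159 and 165 CPM at 24 h, against 86.5, 77.4, 82.03 and 88.4 CPM at 3 h. Fdps changed by 1.21 ± 0.11 on the log2 scale (adjusted p = 4.17e-06). Lss, which closes the sterol rings, had 61.5, 54.5, 62.3 and 54.2 CPM at 24 h, against 30.8, 29.04, 29.7 and 31.2 CPM at 3 h. Lss changed by 0.96 ± 0.082 on the log2 scale (adjusted p = 1.15e-06). Neither gene overlapped between times. Scd1, a fatty acid desaturase, averaged 105 ± 18.8 CPM at 24 h and 47.1 ± 7.16 CPM at 3 h. Scd1 changed by 1.17 ± 0.14 on the log2 scale (adjusted p = 7.1e-05). Of 11 fatty acid synthesis genes 7 rose (3 within replicates 1 and 2 alone), where 12.2% of all tested genes rose. A CCAAT match was in 15 of 17 cholesterol gene promoters found in the table, against 37.4% of all promoters.

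Among amino acid stress genes more fell than rose. Of 22 tested genes of the integrated stress response 10 fell and 2 rose in 1 µM, where 9.9% of all tested genes fell and 12.2% rose. In DMSO 10 fell and 1 rose, where 4.1% of all tested genes fell and 5.45% rose. In the fit of all 24 libraries 9 fell and 1 rose in 1 µM, where 9.72% of all tested genes fell and 10.1% rose. In that fit 1 fell and 9 rose in 10 µM, where 14.1% of all tested genes fell and 14% rose. Slc7a5, a transporter of large neutral amino acids, had 105, 109, 99.6 and 118 CPM at 24 h, against 201, 204, 229.8 and 225 CPM at 3 h. Slc7a5 changed by -0.98 ± 0.077 on the log2 scale (adjusted p = 5.33e-07). Chac1, which degrades glutathione, had 10.1, 16.5, 9.93 and 13.5 CPM at 24 h, against 26.02, 26.04, 25.9 and 28.3 CPM at 3 h. Chac1 changed by -1.07 ± 0.15 on the log2 scale (adjusted p = 0.000121). Mthfd2, of mitochondrial folate metabolism, and Asns, asparagine synthetase, averaged 61.2 ± 12.05 CPM at 24 h and 123 ± 6.02 CPM at 3 h and 81.8 ± 14.7 CPM at 24 h and 146 ± 23.7 CPM at 3 h (log2 fold changes -0.99 ± 0.12 and -0.82 ± 0.14, adjusted p 4.38e-05 and 0.00204). Of 15 genes of the unfolded protein response 6 rose and none fell in 1 µM, where 12.2% of all tested genes rose. The number that rose was 3 without the 3 h replicate 4 library. Xbp1, a transcription factor of this response, averaged 129.9 ± 8.02 CPM at 24 h and 90.3 ± 7.06 CPM at 3 h. Xbp1 changed by 0.54 ± 0.075 on the log2 scale (adjusted p = 0.000103), against 0.34 in DMSO (adjusted p = 0.0534), and the difference between the time effects was 0.19 (adjusted p = 1).

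Glycolysis and hypoxia genes were mixed. Of 27 tested, 5 fell and none rose (4 rose with the replicate block), where 9.9% of all tested genes fell. The number that fell was 2 without any 1 of 5 libraries (24 h replicates 1 and 3, 3 h replicates 1 to 3). It was 9 without 24 h replicate 4. Gapdh had 858, 1011, 712 and 876 CPM at 24 h, against 1473, 1302, 1444 and 1271 CPM at 3 h. Gapdh changed by -0.65 ± 0.11 on the log2 scale (adjusted p = 0.000506). Pkm, pyruvate kinase, averaged 804 ± 102 CPM at 24 h and 1275 ± 146 CPM at 3 h. Pkm changed by -0.65 ± 0.11 on the log2 scale (adjusted p = 0.000645). The median of the list was 0.06 in 1 µM and 0.53 in DMSO. In 1 µM the summed level of the list was 3987, 4288, 3320.4 and 5197 CPM at 24 h, against 6016, 5214, 5534 and 5084 CPM at 3 h. In DMSO the sums were 10357, 3331, 4077 and 6779 CPM at 24 h, against 5553, 5057, 5022 and 6089 CPM at 3 h, and replicate 1 at 24 h stood far above the rest. Cyp1b1, a cytochrome P450 under the aryl hydrocarbon receptor, had 40.3, 49.2, 68.8 and 55.6 CPM at 24 h, against 27.8, 27.2, 31.2 and 32.3 CPM at 3 h. Cyp1b1 changed by 0.87 ± 0.14 on the log2 scale (adjusted p = 0.000563), against 0.14 in DMSO; the difference, 0.72, was not called (adjusted p = 1). Clock, a core circadian factor, averaged 42.5 ± 1.14 CPM at 24 h and 26.1 ± 3.403 CPM at 3 h. Clock changed by 0.72 ± 0.10 on the log2 scale (adjusted p = 0.000107). In all, 6 of 17 circadian genes rose, against 12.2% of all tested genes. Of 14 fibrous matrix genes 9 rose, where 12.2% of all tested genes rose. The fibrous matrix count was 5, 4 and 5 without the 24 h replicate 1, the 3 h replicate 3 and the 3 h replicate 4 library.

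**Figure D5:**
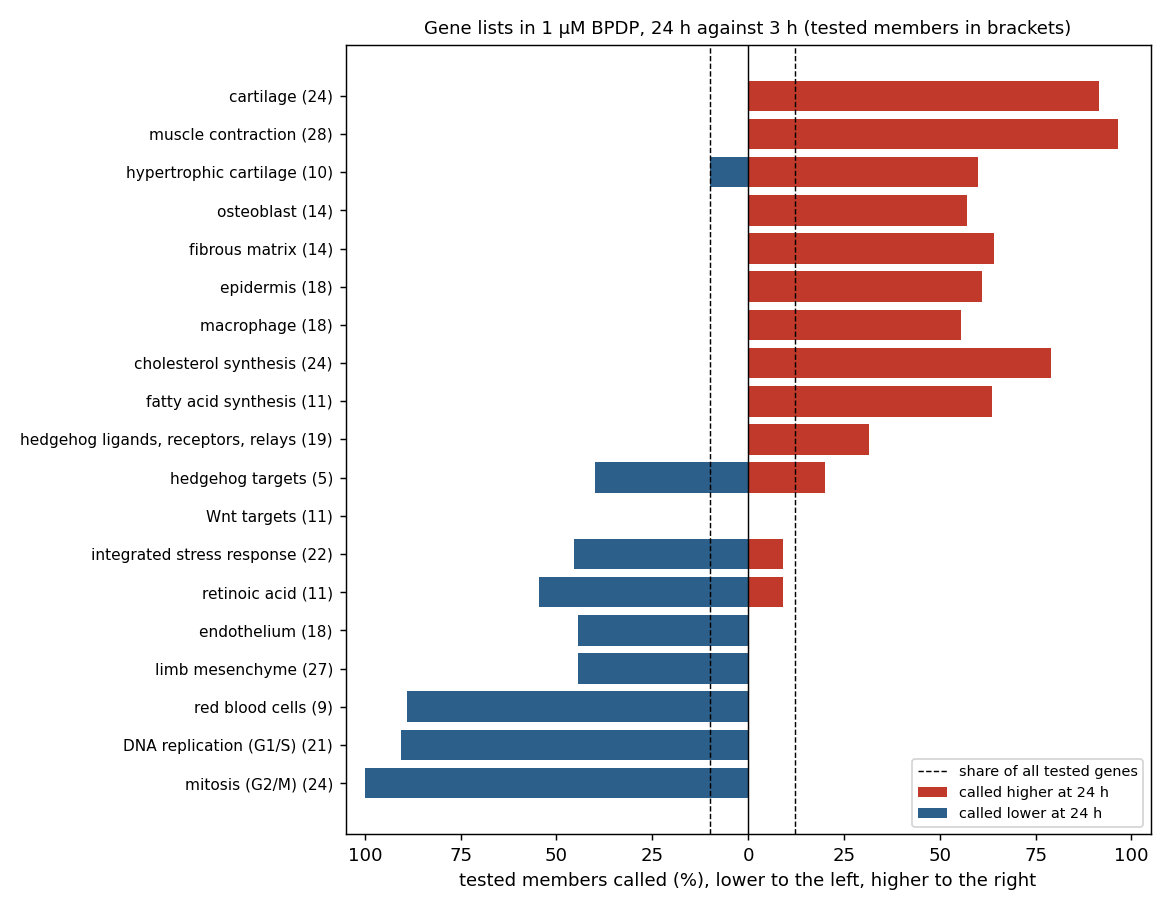
For each gene list, bars give the percentage of its tested members called higher or lower at 24 h in 1 µM BPDP. The dashed lines mark the 12.2% and 9.9% of all tested genes called in each direction. The G2 and M bar reaches all 24 members, lower, and the muscle bar 27 of 28, higher.

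Few genes had a time effect in 1 µM that differed from that in DMSO by this test. The interaction contrast called 6 of 16691 genes (0.0359%), and 575 (3.44%) had an unadjusted p under 0.05. Ihh, Ptch1 and Runx3 were among the 6, and none of the 6 was called within replicates 1 and 2 alone. Bcl2, the survival protein, had 41.1, 34.1, 37.6 and 32.3 CPM at 24 h, against 56.9, 60.99, 65.1 and 63.9 CPM at 3 h in 1 µM. In DMSO Bcl2 had 57.7, 65.1, 89.7 and 85.7 CPM at 24 h, against 60.2, 60.5, 58.3 and 66.1 CPM at 3 h. It fell in 1 µM (log2 fold change -0.75 ± 0.09, adjusted p = 2.48e-05) and did not pass the test in DMSO (0.29, adjusted p = 0.188), and the difference was -1.05 (adjusted p = 0.00156). Pcsk6, a protease that activates growth factor precursors, had 173, 166, 147 and 149 CPM at 24 h, against 83.7, 81.2, 74.8 and 66.5 CPM at 3 h in 1 µM. In DMSO Pcsk6 had 88.6, 78.7, 73.4 and 68.2 CPM at 24 h, against 97.7, 66.7, 72.3 and 71.2 CPM at 3 h. It rose in 1 µM (1.07 ± 0.084, adjusted p = 5.68e-07) against 0.011 in DMSO, a difference of 1.05 (adjusted p = 0.017), not called without 24 h replicate 2 in 1 µM or DMSO 24 h replicate 4 (adjusted p up to 0.0551). Sms, spermine synthase, had 53.4, 54.6, 46.8 and 43.6 CPM at 24 h, against 78.9, 73.9, 74.97 and 61.7 CPM at 3 h (-0.53 ± 0.10 in 1 µM and 0.11 in DMSO), a difference of -0.65 (adjusted p = 0.0372) lost in 11 of 16 fits without 1 library, all but those without 24 h replicates 1 and 2 and 3 h replicate 4 in 1 µM, DMSO 24 h replicate 2 and DMSO 3 h replicate 1. It was also lost in the fit of the 16 libraries of those groups (adjusted p = 0.119). Leaving out 1 library at a time, 3 to 10 genes were called: 10 without 24 h replicate 1 in 1 µM, and 3 without any other 24 h library in 1 µM, 3 h replicates 1 and 2 in 1 µM, DMSO 24 h replicate 4 or DMSO 3 h replicates 2 to 4.

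Against the time effect in 10 µM, 38 of 16691 genes (0.228%) differed, 26 of them positive (0.156%) and 12 negative (0.0719%), and 1654 (9.91%) had an unadjusted p under 0.05. Of the 18 tested macrophage genes, 5 were called in this contrast. C1qa, which rose in 1 µM, had 4.61, 6.99, 4.08 and 4.14 CPM at 24 h, against 9.86, 15.4, 11.9 and 14.4 CPM at 3 h in 10 µM, a difference of 2.25 (adjusted p = 0.000321). The other complement chains C1qb (1.72, adjusted p = 0.000852) and C1qc (1.66, adjusted p = 0.00373) and Lyz2 (1.82, adjusted p = 0.00954) differed in the same direction. The summed macrophage markers in 10 µM were 105 to 155 CPM at 24 h and 125 to 163 CPM at 3 h.

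Plk1, Kif15, Brca1 and Rrm2 fell in both concentrations and fell less in 1 µM than in 10 µM. Plk1 had 22.2, 16.1, 20.5 and 20.1 CPM at 24 h, against 65.6, 71.2, 76.8 and 87.3 CPM at 3 h in 10 µM (difference 0.73, adjusted p = 0.00888). Brca1, of DNA repair, and Kif15, a mitotic motor, differed by 1.01 and 0.93 (adjusted p 0.00888 and 0.00888), and Rrm2 by 0.67 (adjusted p = 0.0404). Among the negative differences were those of Slc7a5 and Slc7a1, both amino acid transporters. Slc7a5 had 262, 185, 337 and 249.5 CPM at 24 h, against 207, 282, 266 and 258 CPM at 3 h in 10 µM (difference -1.02, adjusted p = 0.00954), and Slc7a1, which carries cationic amino acids, differed by -0.75 (adjusted p = 0.00839). Chac1 had 36.9, 22.6, 48.9 and 41.2 CPM at 24 h, against 32.3, 44.1, 25.3 and 31.3 CPM at 3 h in 10 µM (difference -1.26, adjusted p = 0.0312). The number of genes called was 78 with the replicate block. It was 79 without 24 h replicate 2 in 1 µM, 20 without 24 h replicate 3, 24 and 21 without 3 h replicates 1 and 2 in 1 µM, and 25 and 24 without 3 h replicates 1 and 3 in 10 µM. In the fit of 24 libraries, 3317 genes (19.9%) changed over time in 1 µM, 4683 (28.1%) in 10 µM and 2739 (16.4%) in DMSO.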

How the data were processed

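Poly-A RNA of 24 forelimb bud libraries in 6 groups of 4 was measured, and the 8 libraries in 1 µM BPDP were the subject. Read counts per gene were deposited by the authors as raw counts, and CASAVA 1.8, STAR 2.5, HTSeq 0.6.1, DESeq2 (version given as 2) and the build mm10 are named in the submitters' processing notes. Strand use in the counting is not given in the sources used here, so overlapping and antisense genes cannot be told apart, and near-identical genes may share reads. The 5 deposited tables were joined over 25844 genes, 50 columns of other values were not used, and the counts of libraries present in more than 1 table differed in 0 cases. No pair of replicates was within sampling noise (lowest chi-square per degree of freedom 4.91).

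Genes were tested with edgeR 4.0.16 (R 4.3.3, limma 3.58.1), with TMM scaling, the filterByExpr defaults (minimum count 10, minimum total 15), robust quasi-likelihood fits and Benjamini-Hochberg adjustment over all genes tested, at 0.05. Each time comparison used its own 8 libraries. Differences between time effects were contrasts in a fit of all 24 libraries over 16691 genes. CPM values used TMM-scaled library totals. Standard errors are the log2 fold change over the square root of F. The fits were tested on simulated data with known changes.

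The deviations of same-numbered 1 µM libraries from their group means correlated at 0.237, 0.138, 0.103 and 0.192, so replicate numbers may mark pairs. In DMSO these were 0.168, 0.296, 0.0767 and 0.207. In both, the 24 h replicate 3 library correlated most with a 3 h library of another number. A fit with replicate number as a block was therefore run beside each comparison. Values are from the fit without the block unless stated. The labels name no batch. Alternatives were DESeq2 1.42.0, its size factors, no count filter, other sets of libraries, a term for or restriction to replicates 1 and 2 or 3 and 4, and leaving out each library.

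The genes and lists were chosen with earlier results of these data known. Named genes were up to 6 called members of each list with the smallest p, every hedgehog gene, the 12 largest changes each way among called genes whose groups did not overlap and whose mean count was at least 50 in the higher group, and up to 12 genes of each contrast. The text takes a selection of these, so how often genes are named carries no information. Some genes are not reported here.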

Additional observations from a re-analysis of the deposited data

Results flagged for a closer look

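Several libraries lay apart from the other 3 of their group by Dixon's criterion for 4 values. It was passed in 17 of 224 groups of values examined, and chance alone passes it in about 1 of 20. At 24 h in 1 µM, Gli1 was at 34.7 CPM in replicate 1, against 9.62 to 12.8 CPM in the other 3 libraries, and Mcm5 was at 107 CPM there, against 79.7 to 82.9 CPM. Replicate 2 at 24 h was low for Cdc20 (30.9 CPM, against 43.5 to 45.2 CPM), Top2a (121 CPM, against 139 to 142 CPM) and Sufu (77.5 CPM, against 84.4 to 85.6 CPM). The same library was high for Ednrb (14.9 CPM, against 8.95 to 9.48 CPM) and Myf6 (1.93 CPM, against 0.712 to 0.879 CPM). Replicate 3 at 24 h had 148 CPM of Krt77, against 6.47 to 27.4 CPM, and replicate 4 at 24 h had 282 CPM of Tbx5, against 243 to 247 CPM.

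At 3 h in 1 µM, replicate 3 held 5.36% of its counts in Yam1 and 11.8% in its 10 most abundant genes, against 5.95 to 6.92% in the top 10 of the other 3 libraries, and Spp1 was at 3.14 CPM there, against 1.77 to 1.89 CPM. Replicate 1 at 3 h had 356 CPM of Krt14, against 283 to 291 CPM, and 38.3 CPM of Scx, against 44.9 to 45.6 CPM. Replicate 4 at 3 h had 271 CPM of Gli3, against 240 to 241 CPM, and 28.3 CPM of Chac1, against 25.9 to 26 CPM. In DMSO at 3 h, Runx3 was at 38.8 CPM in replicate 1, against 24.6 to 26.4 CPM.

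Time effects that passed the test of their difference (edgeR quasi-likelihood, 24 libraries) were those of Ihh (1.56), Pcsk6 (1.05), Bcl2 (-1.05), Runx3 (-1.54), Ptch1 (-1.52) and Sms (-0.649), each as the log2 fold change in 1 µM minus that in DMSO. Between 1 and 10 µM, C1qa (2.25), C1qb (1.72), C1qc (1.66), Lyz2 (1.82), Brca1 (1.01), Kif15 (0.926), Plk1 (0.728) and Rrm2 (0.67) had the more positive effect in 1 µM, and Slc7a1 (-0.752), Slc7a5 (-1.02) and Chac1 (-1.26) the more negative one.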

How the results depend on the processing

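The number of genes that changed over time in 1 µM was 3417, and 3879 with DESeq2, 3434 with its size factors, 3361 with no count filter, 3317 with all 24 libraries in the fit and 3658 with the replicate block, 3273 of them called in both fits. With only replicates 1 and 2 it was 1349, and with only replicates 3 and 4 it was 3570, and leaving out 1 library gave 2345 to 3431. In DMSO the number was 44 within replicates 1 and 2 and 791 to 1600 without 1 library. For the contrast of 1 µM with DMSO, 15 genes were called by DESeq2 and 3 in the fit of 16 libraries. With that split of the replicates as a covariate 11 were called, and 9 with the replicate block. Within replicates 1 and 2 alone 1 gene was called, none of the 6 called with all 24 libraries. Within replicates 3 and 4 the number was 13, and leaving out 1 library gave 3 to 10. For the contrast with 10 µM the numbers were 153 by DESeq2, 74 in the fit of 16 libraries, 78 with the replicate block, 80 with the covariate, 0 within replicates 1 and 2, and 20 to 79 without 1 library. The DMSO splits by replicate and the fits without each DMSO or 10 µM library in the contrasts were chosen after seeing the data. The causes were not tested.

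Of 101 named genes, 101 kept their direction and side of the threshold with DESeq2 size factors, 99 with DESeq2, 97 with no count filter, 96 with the replicate block, 88 within replicates 1 and 2 and 89 within replicates 3 and 4. Each call changed by the replicate block is given beside its result, and the block changed no other call of a named gene. The sign changed for 2 genes that did not pass the test. Gli2 was at -0.0049 on the log2 scale in the fit of 24 libraries, -0.068 within replicates 3 and 4, and -0.059 to 0.074 without 1 library. Sox9 was at 0.0081 within replicates 1 and 2 and -0.095 to 0.035 without 1 library. Of the list counts, that of osteoblast genes that rose was 3 with no count filter, that of circadian genes 3 and of pericyte genes 2 in the fit of 24 libraries. With 4 libraries a group, genes near the detection filter and genes with wide spread between replicates, such as Col10a1 and the keratins, are measured least precisely.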
